A study of Mus musculus with 12 samples.

Results

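The extracellular matrix genes described here are 47 genes, chosen by name as collagens, adhesive and elastic glycoproteins, proteoglycans, crosslinking enzymes and remodelling factors, of 48795 genes in the deposited tables. All 47 were found, 2 of them under a newer symbol (Ctgf is Ccn2 and Cyr61 is Ccn1 in the reference). They were measured in C2C12 cells, a mouse myoblast line that fuses into multinucleated myotubes when serum is lowered, after 5 days in 2% horse serum. Poly(A) RNA of 12 libraries was sequenced, 3 for each of 4 groups. The vehicle group received 0.02% DMSO for 24 h, and the gRc group 10 µM ginsenoside Rc, a saponin of ginseng, for 24 h. The H2O2 group received vehicle for 18 h and then 0.25 mM H2O2 for 6 h, and the gRc + H2O2 group 10 µM gRc for 18 h before the same H2O2 step. A tag on the gRc + H2O2 libraries reads 24 h for the gRc step instead, and the cell-type tag of all groups reads myoblasts. The design asks how H2O2, an oxidative stress, changes the cells and whether gRc given first alters that. Whether replicates were grown as separate cultures is not stated, and each p-value therefore reflects library-to-library spread that could be technical.

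Muscle fibres are held in a basement membrane of type IV collagen, laminin and nidogen, which is embedded in an interstitial matrix of fibrillar collagens, fibronectin and proteoglycans. Fibroblasts make most of the interstitial matrix of adult muscle, but myoblasts and young myotubes in culture also secrete collagens, fibronectin and SPARC. Newly made collagen is trimmed and crosslinked outside the cell, and metalloproteases and their TIMP inhibitors set how fast it is removed.

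The libraries held abundant muscle transcripts, and the fibroblast markers among them ran from undetected to moderate levels. None of 10 myotube markers examined stayed under 1 CPM in all libraries, and their summed level was 12160.0 to 18930.0 CPM (library-size-scaled counts, with TMM factors) over the libraries. Of 9 fibroblast markers, Tcf21 had 0 counts in all 12 libraries and Thy1 did not exceed 0.128 CPM. The other 7 were detected, among them Pdgfra at 10.9 to 22.9 CPM, Cd34 at 11.2 to 23.1, Twist2 at 5.36 to 8.13 and Pi16 at 3.93 to 7.54. Pdgfrb, a receptor shared by fibroblasts and mural cells, made up most of that list, whose sum ran from 303.9 to 356.6 CPM without H2O2 and from 150.4 to 175.8 CPM with it. Endothelial, macrophage and adipocyte lists, of 4 markers each, summed to at most 2.5, 1.83 and 0.621 CPM. Smooth muscle or myofibroblast markers, of which Des and Tagln are also muscle genes, summed to 6561 to 12930.0 CPM, and chondrocyte or osteoblast markers to 34.3 to 82.0 CPM. These markers do not settle whether fibroblast-like cells were present, so the 47 genes are called matrix genes, without a cell type. In cultures sequenced in bulk, fewer cells of a type and less RNA per cell cannot be told apart.

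The libraries differed within groups before any treatment is considered. Total counts were 19274729 to 31409056, so counting error was small for most matrix genes. The first principal component of all genes tested held 43.1% of the variance, with vehicle 1 at -68.6 and vehicle 3 and gRc 3 at 82.3 and 84.2. Along with it, the mean fragment length ran from 175.5 bases in vehicle 1 to 235.7 in vehicle 3 and 246.9 in gRc 3. Genes in the lowest 10% of GC content stood at -0.781 (log2) against genes in the highest 10% in vehicle 1 and at 0.332 and 0.429 in vehicle 3 and gRc 3. Many matrix genes followed this order, and its part in each result was not tested except where a value without these libraries is given.

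**Figure D1:**
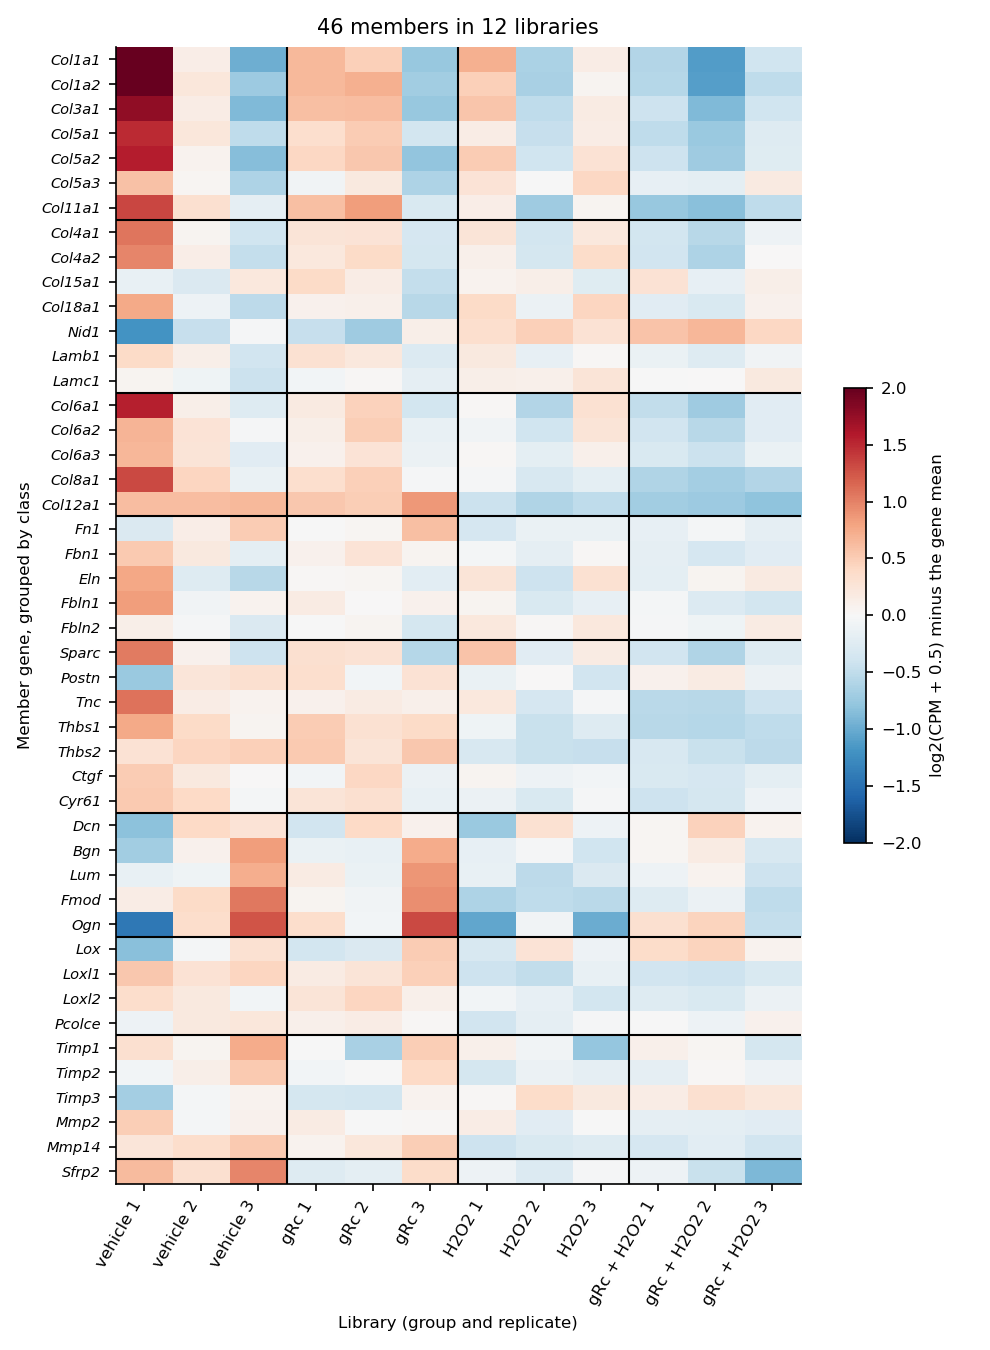
Each row is 1 of the 46 matrix genes tested, grouped by class, and each column is 1 library. Colour gives log2(CPM + 0.5) minus the gene's mean over the 12 libraries, and the scale ends at 2 in either direction. The 7 fibrillar collagens at the top are highest in vehicle 1, and Col12a1, Thbs1 and Thbs2 are lower in all 6 libraries with H2O2 than in all 6 without.

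The matrix genes took 2.79 to 7.11% of all counts. Their summed TPM (a per-length level within a library) was 27305, 18281 and 13629 in vehicle, 18741, 18108 and 14382 in gRc, 15712, 13207 and 14757 in H2O2 and 13248, 12021 and 13045 in gRc + H2O2. The 3 gRc + H2O2 libraries and H2O2 2 were the lowest, followed by vehicle 3, and vehicle 1 stood far above the rest. Of the 47 genes, 34 exceeded 100 CPM in every library. Only 4 stayed under 2 CPM throughout, and these were Lum, Col15a1, Eln and Fbn2, the last with 0 counts in all 12 libraries. Fbn2 was left out of the tests, which covered the other 46.

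Sparc, a collagen-binding matricellular glycoprotein, had the highest per-length level, at 3415 TPM on average over the 12 libraries (SD 930), and ranked 32nd among all genes of the files. Col3a1 (1636 TPM, SD 996), Fn1 (1549, SD 308), Bgn (1545, SD 280.1), Col1a2 (859, SD 798) and Col1a1 (611, SD 574) followed, then Timp1, Timp2, Pcolce and Col5a2 between 465 and 497 TPM. The same 10 genes led when CPM were divided by effective length. Neighbours in this order differed by less than the larger of their SDs over libraries, except for Sparc against Col3a1.

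The fibrillar collagens, which form the load-bearing fibrils of the interstitial matrix, varied widely within vehicle. Col1a1, a chain of type I collagen, stood at 9557, 2037 and 949 CPM in vehicle, 2924, 2608 and 1101 in gRc, 3056, 1201 and 2065 in H2O2 and 1246, 857 and 1418 in gRc + H2O2. Col1a2, the partner chain, stood at 9995, 2663 and 1366 CPM in vehicle, 3574, 3716 and 1407 in gRc, 3151, 1446 and 2369 in H2O2 and 1536, 1058 and 1593 in gRc + H2O2. For Col3a1, the single chain of type III collagen, the values were 15642, 5066 and 2474 CPM in vehicle, 6939, 7063 and 2700.0 in gRc, 6715, 3239 and 5128 in H2O2 and 3432, 2484 and 3467 in gRc + H2O2. In vehicle the highest library exceeded the lowest 10.1-fold for Col1a1, 7.32-fold for Col1a2 and 6.33-fold for Col3a1, and the groups overlapped in every comparison. The 2 chains of type I collagen kept together, with a Col1a1 to Col1a2 ratio of TPM between 0.607 and 0.838 in the 12 libraries. Col5a1, Col5a2 and Col5a3, chains of the fibril-nucleating type V collagen, and the low Col11a1 had their highest vehicle value in vehicle 1 as well.

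**Figure D2:**
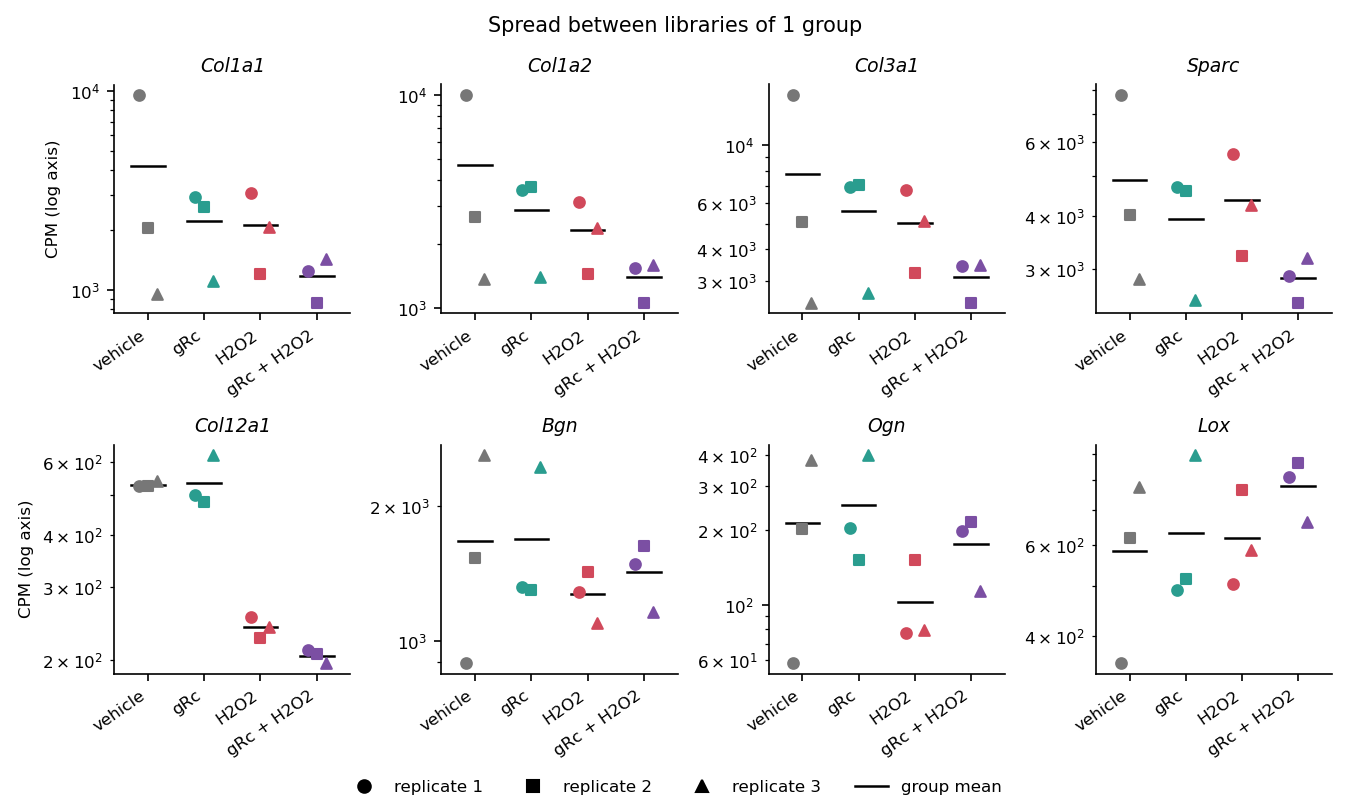
Points are CPM of single libraries on a log axis, with marker shapes for replicate numbers and black lines for group means. Col1a1, Col1a2, Col3a1 and Sparc spread widely within vehicle, where Col12a1 lay between 525 and 540.4 CPM, and Bgn, Ogn and Lox ran in the opposite order, lowest in vehicle 1.

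Within each group, the library highest on the first component was vehicle 3, gRc 3, H2O2 2 or gRc + H2O2 2. Of the 46 genes, 19 (41.3%) were at their group's lowest there in all 4 groups, where 16.4% of all genes tested were. The 19 included all 7 fibrillar collagens, 4 of 5 other collagens (Col6a1, Col6a2, Col6a3 and Col8a1), Col4a1, Col4a2, Col18a1 and Lamb1 of the basement membrane, Fbn1, Fbln2, Sparc and Ctgf. In the opposite order, 7 genes (15.2%) were at their group's highest in those 4 libraries, where 15.9% of all genes were: Nid1, Bgn, Fmod, Ogn, Lox, Timp2 and Timp3. Median GC content was 54.5% for the 19 and 51.3% for the 7, beside 50.8% for all genes tested. Of the 7 genes that fell with H2O2 (Col12a1, Thbs1, Thbs2, Loxl1, Loxl2, Mmp14 and Fmod), only Fmod belonged to one of these sets. Genes that follow the library order spread within groups and so pass less easily. The count therefore does not test the calls against that order.

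Type IV collagen, the network of the basement membrane, is made of chains encoded head to head by Col4a1 and Col4a2, whose starts lie 21 bases apart on opposite strands of chromosome 8. Col4a1 stood at 1159, 575 and 418 CPM in vehicle, 657, 666 and 436 in gRc, 656, 428 and 638 in H2O2 and 427, 376 and 513 in gRc + H2O2. Col4a2 stood at 957, 535 and 349 CPM in vehicle, 566, 635 and 379.5 in gRc, 522, 381 and 630.3 in H2O2 and 372, 317 and 489 in gRc + H2O2. The Col4a1 to Col4a2 ratio of TPM was 1.71 to 2.90 over the libraries, lowest in gRc 3 and highest in vehicle 1. Neither gene passed the test in any comparison. Log2 fold changes (± SE) of Col4a1 were -0.32 ± 0.34 for H2O2 against vehicle and -0.42 ± 0.34 for gRc + H2O2 against gRc. For Col4a2 they were -0.26 ± 0.35 and -0.42 ± 0.35, so a fall of either gene is not excluded. Lamb1 and Lamc1, laminin chains, gave a ratio of TPM from 0.875 to 5.45. The effective length that RSEM assigned to Lamb1 ran from 1814 bases in vehicle 1 to 5456 in gRc 3, so this ratio carries isoform assignment as well as counts. By CPM, Lamb1 was 343, 284 and 201 CPM in vehicle, 325, 304 and 217 in gRc, 301, 235 and 267 in H2O2 and 239, 219 and 249.5 in gRc + H2O2. Those values overlapped between groups in all 4 pairwise comparisons.

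Col6a1, a chain of the microfibrillar type VI collagen that borders muscle basement membranes, showed the same feature. Its effective length ran from 1259 bases in vehicle 1 to 3854 in vehicle 3, and the Col6a1 to Col6a2 ratio of TPM from 1.54 to 10.3. By CPM it stood at 1484, 548 and 419.8 CPM in vehicle, 570.3, 690.3 and 389 in gRc, 512, 335 and 621 in H2O2 and 357, 306 and 429 in gRc + H2O2. Col6a2 stood at 438, 329.8 and 269 CPM in vehicle, 296, 386 and 247 in gRc, 259.7, 206 and 327 in H2O2 and 209, 185 and 232 in gRc + H2O2. The groups overlapped for Col6a1 in every comparison, whereas Col6a2 was lower in all gRc + H2O2 libraries than in all gRc libraries. Col6a3, the largest chain, stood at 578, 435 and 312 CPM in vehicle, 386, 442 and 337 in gRc, 372, 319 and 392 in H2O2 and 297, 271 and 333 in gRc + H2O2, and separated in that comparison as well.

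H2O2 against vehicle asks what the peroxide step did in cells without gRc. Of the 46 genes, 6 fell and 0 rose by edgeR's quasi-likelihood test with Benjamini-Hochberg adjustment over 14838 genes (adjusted p under 0.05). That is 13.0% lower, where 7.84% of all genes tested were lower and 7.81% higher. The 6 were Col12a1, Thbs1, Thbs2, Fmod, Loxl1 and Mmp14, drawn from 5 of the 9 classes. The median log2 fold change was -0.39, beside -0.06 over all genes, and 37 of the 46 estimates lay below 0 (80.4%, all genes 54.2%). Without vehicle 1 the median was -0.15, and the sign of 11 of the 46 estimates changed. The groups did not overlap for 9 genes lower with H2O2 (19.6%, all genes 15.2%) and 2 genes higher (4.35%, all genes 15.9%).

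gRc + H2O2 against gRc repeats the H2O2 contrast in cells given gRc first. It shares no library with the former, but both come from the same fit of all 12 libraries, so the calls are not independent. Again 6 of 46 fell (13.0%, all genes 8.15%) and 0 rose (all genes 7.57%) by the same test. Col12a1, Thbs1, Thbs2, Loxl1 and Mmp14 fell in both comparisons, which is 10.9% of the 46, where 6.06% of all genes fell in both. Loxl2 passed here in place of Fmod. The median was -0.42 (all genes -0.04), with 37 of 46 estimates below 0 (80.4%, all genes 53.0%), and 17 genes were lower without overlap (37.0%, all genes 19.5%) against 2 higher (4.35%, all genes 19.2%). Leaving out vehicle 1, vehicle 3 and gRc 3 together left only vehicle 2 in its group, so nothing is concluded from calls of that fit. The sign of 6 of the 46 estimates changed there. Leaving out vehicle 1 alone gave 10 of the 46 genes, with Col11a1, Nid1, Col8a1 and Tnc added. In all, 3267 of 14838 genes then passed, 1552 higher and 1715 lower. With both directions pooled, that is about the same share as among the 46. By direction the shares differed. Of the 10, only Nid1 had an estimate above 0, whereas 47.5% of all passing genes were higher.

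**Figure D3:**
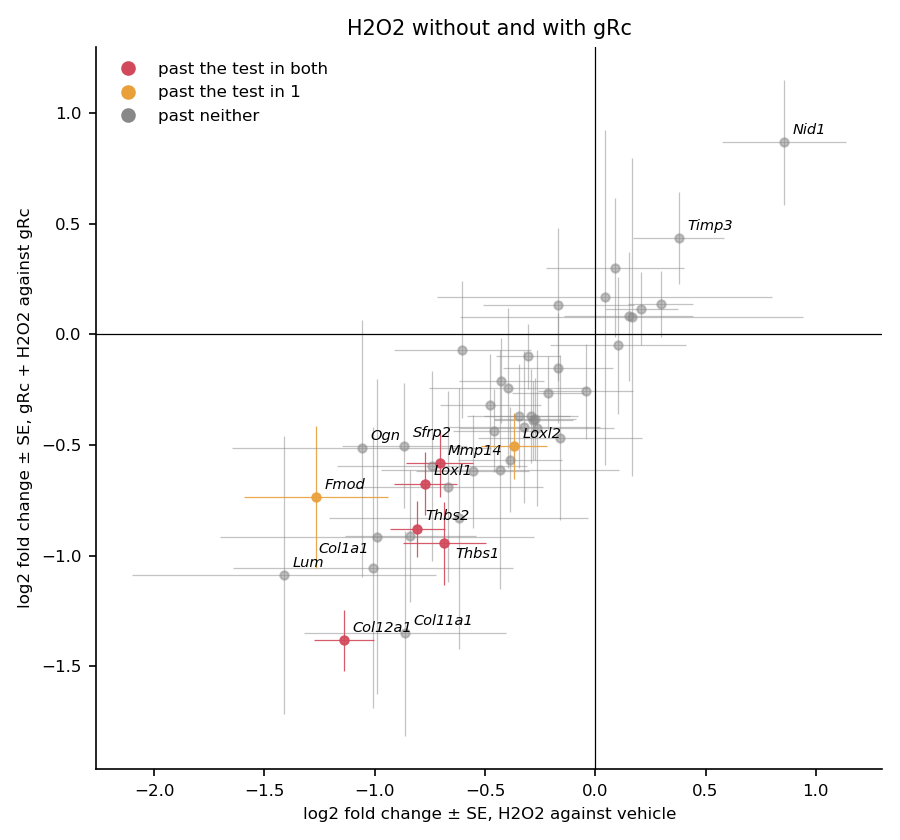
Each point is 1 of 46 matrix genes, with its log2 fold change for H2O2 against vehicle on the x axis and for gRc + H2O2 against gRc on the y axis, and bars of 1 SE. Col12a1, Thbs1, Thbs2, Loxl1 and Mmp14 (red) passed the test in both comparisons and lie below 0 on both axes, and 44 of 46 estimates have the same sign in both.

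Col12a1 encodes type XII collagen, a fibril-associated collagen that lies on the surface of type I collagen fibrils (chr9:79598991-79718831, minus strand, GRCm38). It stood at 525, 525 and 540.4 CPM in vehicle, 499.8, 481 and 624 in gRc, 255, 226 and 240.3 in H2O2 and 212, 207 and 197 in gRc + H2O2. The 6 libraries with H2O2 all lay below the 6 without, and the replicates of vehicle were nearly equal. The log2 fold change was -1.14 ± 0.14 (SE) for H2O2 against vehicle and -1.38 ± 0.14 for gRc + H2O2 against gRc, at adjusted p of 0.000461 and 0.000166 by edgeR. It passed in all 23 alternatives of each comparison.

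The thrombospondins are matricellular glycoproteins that bind cells, matrix and growth factors. Thbs2 (chr17:14665500-14694235, minus strand) stood at 128, 141 and 146 CPM in vehicle, 150.3, 125 and 153 in gRc, 84.0, 77.2 and 76.2 in H2O2 and 83.7, 76.7 and 72.8 in gRc + H2O2. All 6 libraries with H2O2 lay below all 6 without. The log2 fold changes were -0.81 ± 0.13 and -0.88 ± 0.13, with edgeR adjusted p of 0.00205 and 0.00127, and all 23 alternatives of each comparison kept the call. Thbs1 (chr2:118111876-118127133, plus strand), at 330.4 TPM on average beside 27.9 TPM for Thbs2, stood at 2071, 1595 and 1275 CPM in vehicle, 1742, 1515 and 1589 in gRc, 1155, 899 and 1021 in H2O2 and 836, 824 and 857 in gRc + H2O2. Its libraries also separated by H2O2, although vehicle 3 lay close to H2O2 1. The log2 fold changes were -0.68 ± 0.19 and -0.95 ± 0.19, with edgeR adjusted p of 0.0314 and 0.00723. The call against vehicle was lost on leaving out any of 8 single libraries, which were vehicle 1 and 2 and all those of H2O2 and gRc + H2O2, with adjusted p of 0.0507 to 0.125 by edgeR (0.00318 to 0.17 over all 23 alternatives).

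Loxl1 and Loxl2 encode lysyl oxidase-like enzymes, which crosslink elastin and collagen. Loxl1 (chr9:58287738-58313186, minus strand) stood at 322, 271 and 300.3 CPM in vehicle, 249, 266 and 307 in gRc, 166, 157 and 200.3 in H2O2 and 169.9, 166 and 179 in gRc + H2O2. Every library with H2O2 was lower than every library without. The log2 fold changes were -0.77 ± 0.14 and -0.67 ± 0.14, with edgeR adjusted p of 0.00524 and 0.00955. Against vehicle the call was lost with only the groups compared in the fit, at an adjusted p of 0.0609 by edgeR (9.6e-07 to 0.0609 over all 23 alternatives). Loxl2 (chr14:69609068-69695834, plus strand) was lower in abundance, at 49.6, 44.1 and 37.2 CPM in vehicle, 46.5, 52.2 and 41.4 in gRc, 37.2, 34.3 and 29.9 in H2O2 and 32.1, 31.1 and 35.5 in gRc + H2O2. The groups did not overlap in either comparison, though H2O2 1 and vehicle 3 were equal to 3 digits. Its log2 fold change passed the edgeR test only with gRc, at -0.51 ± 0.15 with an adjusted p of 0.0423, against -0.37 ± 0.15 and 0.125 without. Leaving out any of 9 single libraries (gRc 1 and 2, vehicle 2, and all those of H2O2 and gRc + H2O2) raised that adjusted p to between 0.0537 and 0.153 by edgeR (0.00666 to 0.294 over all 23 alternatives). Lox itself, the founding member of the family, was 353, 617 and 777 CPM in vehicle, 491, 514 and 894 in gRc, 504, 766 and 587 in H2O2 and 812, 864 and 663 in gRc + H2O2, and its groups overlapped in both comparisons.

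Mmp14 encodes a membrane-anchored metalloprotease that cleaves fibrillar collagen and activates the gelatinase encoded by Mmp2. Mmp14 (chr14:54431612-54445364, plus strand) stood at 511, 547 and 621 CPM in vehicle, 451, 503 and 606 in gRc, 321, 349 and 359.6 in H2O2 and 339, 373 and 329 in gRc + H2O2. The 6 libraries with H2O2 were all lower than the 6 without. Log2 fold changes were -0.71 ± 0.15 and -0.58 ± 0.15, with edgeR adjusted p of 0.01 and 0.0236. With gRc the call was lost without gRc 3 or without any 1 of the gRc + H2O2 libraries (adjusted p 0.0596 to 0.0935 by edgeR, and 0.000297 to 0.163 over all 23 alternatives). A GC correction ended the call in both comparisons, with log2 fold changes of -0.71 and -0.53. Only the groups compared in the fit ended it against vehicle too, as did no filter, limma on TPM and effective-length offsets with gRc. The fold change was -0.77 to -0.64 against vehicle and -0.68 to -0.46 with gRc over all 23 alternatives. Mmp2 stood at 483, 333 and 364 CPM in vehicle and 381, 294 and 342 CPM in H2O2, which overlap. With gRc, Mmp2 was lower in all gRc + H2O2 libraries than in all gRc libraries, and it passed in neither comparison.

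Fmod, fibromodulin, is a small leucine-rich proteoglycan that binds fibrillar collagen. Fmod (chr1:134037254-134048277, plus strand) was scarce, at 5.1, 6.09 and 10.0 CPM in vehicle, 4.75, 4.31 and 9.15 in gRc, 2.8, 3.05 and 2.98 in H2O2 and 3.73, 4.13 and 3.06 in gRc + H2O2. The highest values were in vehicle 3 and gRc 3, and the 3 H2O2 libraries lay below all others. The log2 fold change for H2O2 against vehicle was -1.27 ± 0.33 (edgeR adjusted p 0.0238), and for gRc + H2O2 against gRc -0.74 ± 0.32 (adjusted p 0.159). The former call was lost without vehicle 3 or any 1 of the H2O2 libraries, at adjusted p of 0.0702 to 0.0729 by edgeR (0.00233 to 0.0729 over all 23 alternatives). At 60 to 285 counts a library, Fmod rests on fewer reads than the other called genes.

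Nid1, nidogen, links the laminin and type IV collagen networks of the basement membrane, and was the one matrix gene higher with H2O2 without overlap in both comparisons. Nid1 (chr13:13437551-13512269, plus strand) stood at 126, 211 and 285 CPM in vehicle, 209.8, 176 and 315 in gRc, 365, 404 and 357 in H2O2 and 430.0, 462 and 387 in gRc + H2O2. Its highest libraries without H2O2 were vehicle 3 and gRc 3, and all 6 libraries with H2O2 were above these. The log2 fold changes, 0.86 ± 0.28 and 0.87 ± 0.28, missed the threshold of the edgeR test, at adjusted p of 0.0653 and 0.0619. DESeq2 and a GC correction both placed it past the threshold in both comparisons.

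**Figure D4:**
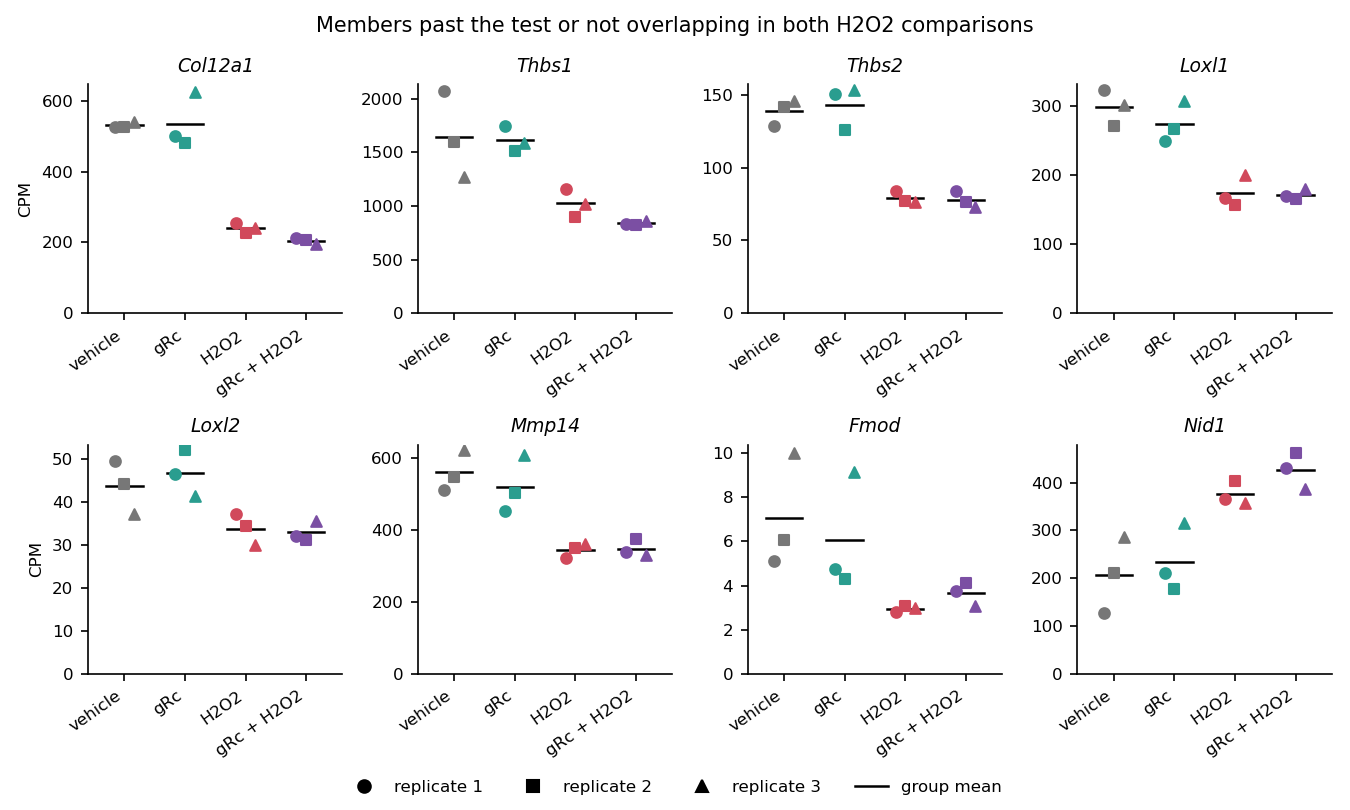
Points are CPM of single libraries from 0 upward, with marker shapes for replicate numbers and black lines for group means. Col12a1, Thbs1, Thbs2, Loxl1 and Mmp14 are lower in every library with H2O2 than in every library without, and Nid1 is higher in every library with H2O2.

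To show what lies upstream of these genes, the 250 bases before the RefSeq start are printed for the 3 called genes that the RefSeq promoter table (GRCm38.p6) holds. The table has 32 of the 47 genes. Capitals mark matches, on either strand, to the CCAAT box (CCAAT), the TATA box (TATAAA) or the SP1 motif (GGGCGG), and where matches touch or overlap they form 1 run. In Mmp14 a CCAAT match on the minus strand (ATTGG) shares its last base with an SP1 match. TEAD (GGAATG), AP-1 (TGANTCA) and CArG box matches were searched too, and these 3 sequences hold none.
Thbs2 (chr17:14694263-14694512, minus strand): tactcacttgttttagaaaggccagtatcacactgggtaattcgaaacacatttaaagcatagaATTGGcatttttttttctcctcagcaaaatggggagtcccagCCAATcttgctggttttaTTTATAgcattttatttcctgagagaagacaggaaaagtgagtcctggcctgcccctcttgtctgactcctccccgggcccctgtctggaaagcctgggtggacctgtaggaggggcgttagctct
Mmp14 (chr14:54431348-54431597, plus strand): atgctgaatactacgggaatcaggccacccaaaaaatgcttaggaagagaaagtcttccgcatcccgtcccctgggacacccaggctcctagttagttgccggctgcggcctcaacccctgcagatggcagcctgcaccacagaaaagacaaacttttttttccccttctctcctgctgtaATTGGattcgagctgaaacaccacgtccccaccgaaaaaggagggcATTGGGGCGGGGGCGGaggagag
Fmod (chr1:134037004-134037253, plus strand): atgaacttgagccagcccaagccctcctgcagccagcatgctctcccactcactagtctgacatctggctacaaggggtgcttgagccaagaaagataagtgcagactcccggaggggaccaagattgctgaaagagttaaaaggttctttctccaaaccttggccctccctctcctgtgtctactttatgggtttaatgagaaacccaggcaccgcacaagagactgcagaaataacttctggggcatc
Thbs2 has 2 CCAAT boxes, which begin 186 and 144 bases before the start, and a TATA match. The CCAAT box at 186 and the TATA match lie on the strand opposite to the gene. Mmp14 has 2 CCAAT boxes on the minus strand and 2 SP1 motifs within 19 bases of the start. Fmod has no match to any of the motifs. Over the 32 genes, 21 (65.6%) held an SP1 motif, 12 (37.5%) a CCAAT box, 7 (21.9%) a TEAD motif, 6 (18.8%) a TATA box, 1 an AP-1 motif and 0 a CArG box. Of all 32851 promoters in the table, 32.7% held an SP1 motif, 33.8% a CCAAT box, 12.6% a TEAD motif, 12.4% a TATA box, 6.75% an AP-1 motif and 1.47% a CArG box. A matrix gene was counted where any of its promoters held a match, so shares of genes and shares of promoters are not counted alike. A match is a description of these letters and not a binding site.

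Other abundant matrix genes did not pass in either comparison. Fn1, fibronectin, stood at 5299, 7120.4 and 9211 CPM in vehicle, 6479, 6702 and 9903 in gRc, 5144, 5910.4 and 5945 in H2O2 and 5833, 6346 and 5716 in gRc + H2O2. Its log2 fold changes were -0.35 ± 0.23 and -0.37 ± 0.23. Fbn1, the main fibrillin of elastic microfibrils, stood at 1552, 1234 and 937 CPM in vehicle, 1143, 1301 and 1111 in gRc, 1042, 950.5 and 1089 in H2O2 and 947, 854 and 922 in gRc + H2O2. It was lower with H2O2 without overlap only among gRc libraries, at -0.38 ± 0.18. Fbln2, a fibulin of basement membranes and elastic fibres, was 636, 577 and 478 CPM in vehicle, 581, 609 and 459 in gRc, 677, 594 and 682 in H2O2 and 577, 554 and 655 in gRc + H2O2, and its groups overlapped.

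Among matricellular genes, Sparc stood at 7782, 4022 and 2835 CPM in vehicle, 4696, 4595 and 2532 in gRc, 5632, 3219 and 4243 in H2O2 and 2888, 2486 and 3177 in gRc + H2O2. Its log2 fold change with H2O2 was -0.16 ± 0.37 against vehicle and -0.47 ± 0.37 against gRc. Ctgf, a secreted regulator and classic YAP target, stood at 507, 408 and 357 CPM in vehicle, 345, 477 and 329 in gRc, 372, 332 and 343 in H2O2 and 287, 281 and 310.2 in gRc + H2O2. Cyr61, of the same family, had estimates of -0.46 ± 0.19 and -0.44 ± 0.19, with overlapping groups. Tnc, tenascin C, stood at 1392, 728 and 682 CPM in vehicle, 690.3, 733 and 704 in gRc, 753, 515 and 639 in H2O2 and 449.7, 444 and 491 in gRc + H2O2, with estimates of -0.55 ± 0.26 and -0.62 ± 0.26. All 7 matricellular genes had estimates below 0 in both comparisons, with Postn, periostin, at -0.17 and -0.15.

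The small leucine-rich proteoglycans, which coat collagen fibrils, were abundant apart from Fmod and Lum, and Bgn, Fmod and Ogn followed the opposite library order to the collagens. Bgn, biglycan, stood at 894, 1529 and 2589.9 CPM in vehicle, 1323, 1303 and 2432 in gRc, 1286, 1426 and 1100.5 in H2O2 and 1481, 1628 and 1165 in gRc + H2O2. Dcn, decorin, stood at 97.1, 228 and 208 CPM in vehicle, 131, 227 and 183 in gRc, 102, 212 and 161 in H2O2 and 177, 237 and 179.9 in gRc + H2O2. Ogn, osteoglycin, had the widest range of the 5 within vehicle, at 58.4, 202 and 379.5 CPM in vehicle, 203, 152 and 398 in gRc, 77.1, 151 and 79.1 in H2O2 and 198, 215 and 114 in gRc + H2O2. For all 3, vehicle 1 was the lowest vehicle library, and the H2O2 and vehicle groups overlapped. Lum had 3 to 34 counts a library, too few for a firm comparison.

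The TIMPs inhibit metalloproteases. Timp1 stood at 268, 222 and 359 CPM in vehicle, 212, 136 and 299.8 in gRc, 229.8, 203 and 125 in H2O2 and 229.7, 220.1 and 167 in gRc + H2O2. Timp2 stood at 1085, 1217 and 1625 CPM in vehicle, 1081, 1118 and 1489 in gRc, 885, 1041 and 998 in H2O2 and 1000.2, 1141 and 1047 in gRc + H2O2, and H2O2 libraries lay below vehicle libraries without overlap. Its log2 fold change was -0.43 ± 0.19 (edgeR adjusted p 0.165), and -0.21 with gRc, where groups overlapped. Timp3 was higher in all gRc + H2O2 libraries than in all gRc libraries and had estimates above 0, at 0.38 ± 0.21 and 0.43 ± 0.21, and did not pass.

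The remaining genes did not pass in either H2O2 comparison. Col8a1, a short-chain collagen, had estimates of -0.84 ± 0.30 and -0.91 ± 0.30 and separated from gRc only, as did Col11a1 at -1.35 ± 0.46. Sfrp2 was lower than vehicle without overlap (-0.87 ± 0.28), and Lamc1 was higher (0.30 ± 0.15). Fbln1, a fibulin, had -0.48 ± 0.23 and -0.32 ± 0.23, and Col18a1, the source of endostatin, 0.10 ± 0.31 and -0.05 ± 0.31. Estimates for Col5a1 were -0.67 and -0.69, for Col5a2 -0.43 and -0.61, and for Col5a3 0.15 and 0.08. Eln, elastin, and Col15a1 had at most 17 and 13 counts a library, with SEs of at least 0.72.

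gRc + H2O2 against H2O2 asks whether gRc given first changed the stressed cells. None of the 46 genes passed, and 0% of all genes did by edgeR (0.822% had an unadjusted p under 0.05, and 0 of the 46). DESeq2 called 2 genes, neither of them a matrix gene. The median log2 fold change was -0.16 (all genes 0.00), with 31 of 46 estimates below 0 (67.4%, all genes 50.0%). All 7 fibrillar collagens lay below 0, with overlapping groups, and all 5 small leucine-rich proteoglycans above 0. Those collagens, and in the opposite order Bgn, Fmod and Ogn, followed the library order of the first component. On it gRc + H2O2 libraries stood at 5.16, 22.8 and -19.1 and H2O2 libraries at -44.9, -8.26 and -40.5. The part of that order in these signs was not tested. The groups did not overlap for 7 genes lower with gRc (15.2%, all genes 7.62%) and for 1 gene higher, Fmod (2.17%, all genes 7.69%).

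The smallest p-values in that comparison were those of Tnc, Col12a1, Sparc and Thbs1, all lower with gRc without overlap. Tnc was at -0.46 ± 0.26 and Col12a1 at -0.23 ± 0.14. Sparc had -0.61 ± 0.37 and Thbs1 -0.29 ± 0.19, and the adjusted p of all 4 by edgeR was 0.922. Their 95% intervals were -1.02 to 0.10 for Tnc, -0.53 to 0.07 for Col12a1, -1.44 to 0.21 for Sparc and -0.70 to 0.12 for Thbs1. For Col1a1 the interval was -2.41 to 0.72, the widest among the fibrillar collagens named here.

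**Figure D5:**
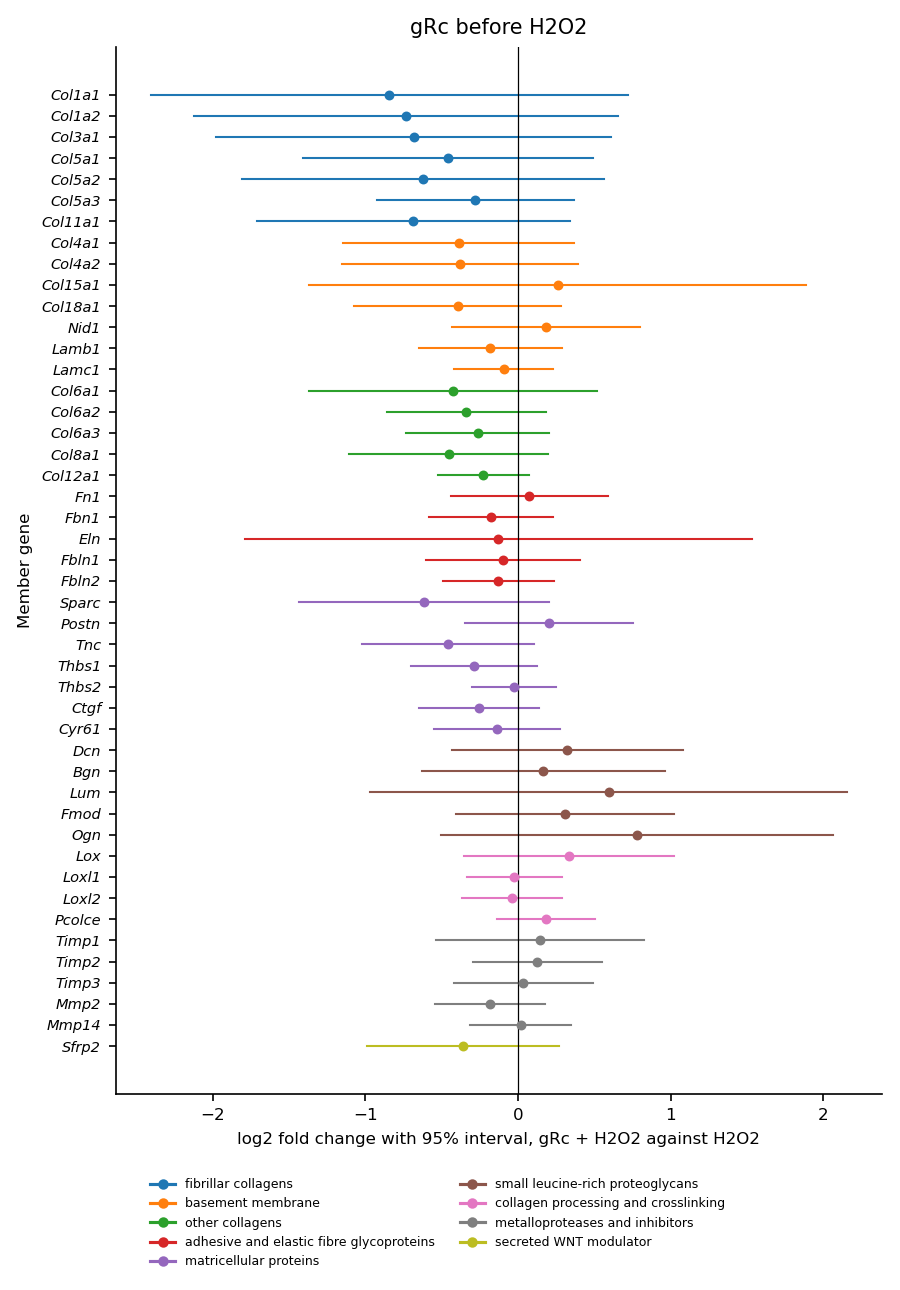
Log2 fold changes for gRc + H2O2 against H2O2 with 95% intervals, 1 row for each of 46 matrix genes and 1 colour for each class. Every interval covers 0, the 7 fibrillar collagens at the top lie below 0 with intervals as wide as -2.41 to 0.72 for Col1a1, and the interval of Thbs2 is among the narrow ones, -0.30 to 0.25.

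gRc against vehicle asks what gRc did in unstressed cells. None of the 46 genes passed, 0% of all genes did by edgeR, and 0.499% of all genes had an unadjusted p under 0.05, as did 1 of the 46. DESeq2 also called 0 genes. That gene was Sfrp2, a secreted WNT modulator, at 7.32, 5.78 and 9.38 CPM in vehicle, 3.7, 3.9 and 5.97 in gRc, 4.19, 3.66 and 4.47 in H2O2 and 4.2, 3.19 and 2.19 in gRc + H2O2. Its estimate was -0.73 ± 0.28, the groups overlapped, and its adjusted p by edgeR was 1. Tnc (-0.40 ± 0.26), Col6a1 (-0.57 ± 0.43) and Col1a1 (-0.92 ± 0.71) came next, and 0 of the 46 genes had groups that did not overlap, where 0.741% of all genes were lower and 0.869% higher. The median was -0.14 and turned to 0.05 without vehicle 1.

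The difference between the H2O2 effects with and without gRc was tested directly. No matrix gene passed, 0% of all genes did by edgeR, and 0.586% of all genes and 0 of the 46 had an unadjusted p under 0.05. DESeq2 called 1 gene, which was not a matrix gene. The smallest p-values belonged to Col12a1 (difference -0.24 ± 0.19), Timp1 (0.53 ± 0.44), Fmod (0.53 ± 0.45) and Pcolce (0.21 ± 0.21). Pcolce, an enhancer of procollagen processing, stood at 368, 452 and 464 CPM in vehicle, 424, 439 and 403 in gRc, 302, 348 and 389.9 in H2O2 and 395, 369 and 417 in gRc + H2O2. So Fmod and Loxl2, each past the threshold in 1 H2O2 comparison, were not shown to respond differently with gRc, at intervals of -0.47 to 1.53 and -0.60 to 0.33.

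Genes that act on the matrix from outside the 47 were counted on lists drawn up by function, with earlier results of these data known. Counts are given for H2O2 against vehicle and then for gRc + H2O2 against gRc. Each count is read beside the share of all genes tested, 7.84% lower and 7.81% higher in the former and 8.15% and 7.57% in the latter. Of 23 tested enzymes and chaperones of collagen synthesis, 2 fell (8.7%, close to the share of all genes) and 0 rose in each comparison. P4ha3, a subunit of prolyl 4-hydroxylase, went from 22.1, 12.4 and 11.3 CPM in vehicle to 7.78, 6.07 and 7.7 in H2O2 (-1.09 ± 0.27), and Adamts14, a procollagen peptidase, changed by -0.81 ± 0.22.

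Of 18 integrin subunits, the receptors through which cells hold the matrix, 7 fell and 0 rose in each comparison. Itgb6 went from 21.7, 23.2 and 26.3 CPM in vehicle to 7.5, 7.63 and 6.29 in H2O2, a log2 fold change of -1.73 ± 0.22. Itga3, a laminin-binding subunit, changed by -1.05 ± 0.18, Itga10 by -0.85 ± 0.15 and Itga1 by -1.52 ± 0.33, the latter pair being subunits of collagen receptors.

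Of 22 other proteases and inhibitors, 6 fell (27.3%) and 1 rose (4.55%) against vehicle, and 8 fell (36.4%) and 1 rose against gRc. Adamts5, an aggrecanase, changed by -1.03 ± 0.13, Adamts15 by -1.63 ± 0.29 and Mmp15 by -0.99 ± 0.19. Plaur, the urokinase receptor, rose by 1.86 ± 0.24, from 4.27, 8.3 and 9.27 CPM in vehicle to 26.7, 26.1 and 27.1 CPM in H2O2.

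Of 19 further collagen genes, 4 rose and 4 fell against vehicle (21.1% each), and 2 rose (10.5%) and 5 fell (26.3%) against gRc. Col20a1 was near 0 without H2O2, at 0.111, 0.138 and 0.143 CPM in vehicle and 0.18, 0.122 and 0.0642 in gRc, and reached 7.64, 6.31 and 10.5 CPM in H2O2 and 6.07, 6.82 and 8.26 in gRc + H2O2. Its groups lay far apart in both comparisons, and it passed the edgeR test in each. Col9a3 rose within low levels, from 0.222, 0.0346 and 0.0713 CPM in vehicle to 0.746, 0.678 and 0.745 CPM in H2O2. Col25a1 and Col13a1, transmembrane collagens, changed by -1.40 ± 0.30 and -2.04 ± 0.50.

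Of 16 YAP and TEAD targets outside the 47, 2 rose (12.5%) and 3 fell (18.8%) against vehicle, and 2 rose and 1 fell (6.25%, under the share of all genes) against gRc. Ankrd1 rose by 0.74 ± 0.15 and Fjx1 by 1.02 ± 0.23, while Arhgef17 and Tgfb2 changed by -0.49 ± 0.12 and -0.89 ± 0.27. Ctgf and Cyr61, which belong to the same target set, did not pass. Of 13 genes for hyaluronan and large proteoglycans, 2 fell (15.4%) and 0 rose in each comparison. Hspg2, perlecan of the basement membrane, went from 1936, 1553 and 1256 CPM in vehicle to 1040.0, 854 and 1031 in H2O2 (-0.70 ± 0.18), and Gpc6, a glypican, changed by -0.79 ± 0.17.

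Among the markers of other cells, Pdgfrb fell in both H2O2 comparisons, as did 5 of the 46 matrix genes. It stood at 262, 262 and 294 CPM in vehicle, 274, 254 and 307 in gRc, 128, 122 and 123 in H2O2 and 131, 127 and 109 in gRc + H2O2, with log2 fold changes of -1.13 ± 0.13 and -1.19 ± 0.13 and edgeR adjusted p of 0.000355 and 0.000277. The sum of 8 myoblast or cycling-cell markers was 441.3 to 525.6 CPM without H2O2 and 337.5 to 371.9 CPM with it. Of these, 3 fell against vehicle (37.5%, all genes 7.84%) and 2 against gRc (25.0%, all genes 8.15%), Pax7 by -1.27 ± 0.22 and -1.15 ± 0.22. Of the fibroblast list, Scara5 rose against vehicle (1.40 ± 0.32) while Pdgfrb fell. Of 10 myotube markers, 2 fell against gRc (20.0%) and 0 against vehicle. The part of these markers in the falls of the called matrix genes was not tested.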

How the data were processed

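Poly(A) RNA of 12 C2C12 libraries was sequenced as paired ends with a directional kit. The authors trimmed reads with Trim Galore, aligned them with STAR 2.7.3a to GRCm38 and deposited RSEM 1.3.3 expected counts, with effective lengths and TPM (transcript abundance scaled within each library), for each gene. Whether counting used strand is not given in the sources used here. Expected counts were rounded, and genes were filtered with filterByExpr, which kept 14838 of 48795. All 12 libraries were fitted together by group with TMM factors and edgeR 4.0.16 (R 4.3.3; glmQLFit, glmQLFTest), and p-values were adjusted by Benjamini-Hochberg over 14838 genes. Each SE was derived from the fold change and its F statistic. The biological coefficient of variation was 0.295. CPM used TMM factors, and fold changes of TPM in limma 3.58.1 used log2(TPM + 0.5). Total counts of 19274729 to 31409056 limit precision by counting error only for genes with few counts.

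Alternatives were DESeq2 1.42.0, RLE factors, no filter, a minimum of 10 counts, only the groups compared, limma on TPM, a GC spline of 5 df, effective-length offsets, a replicate block and leaving out libraries. Deviations from the group means of same-numbered vehicle and gRc libraries correlated at 0.460, 0.271 and 0.860, but those of gRc 2 and vehicle 1 at 0.570. Same-numbered values were 0.440, 0.294 and -0.283 for H2O2 and vehicle, and 0.0206, -0.4965 and -0.550 for gRc + H2O2 and gRc. For gRc + H2O2 and H2O2 they were 0.0802, 0.402 and 0.309. These values do not establish pairs, and no label says what a number stands for. Values in every library were given for genes past the test, for the 3 most abundant of each class of 5 or more, for the 4 smallest p-values where fewer passed, and for genes whose groups separated in both H2O2 comparisons. The members and the lists were chosen with earlier results of these data known.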

Additional observations from a re-analysis of the deposited data

How the results depend on the processing

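No alternative reversed a called gene. With only the groups compared in the fit, H2O2 against vehicle gave 2 matrix genes (Thbs1, Fmod, Loxl1 and Mmp14 were lost) and 668 genes in all, and gRc + H2O2 against gRc gave 10 matrix genes. limma on TPM called 1492 and 1459 genes. The fit without vehicle 1 and 3 and gRc 3 has only 1 vehicle library, so nothing is concluded from its counts of genes. Leaving out vehicle 1 and 3 and gRc 3 gave 26 matrix genes and 5120 genes for gRc + H2O2 against gRc. DESeq2 called 2 genes for gRc + H2O2 against H2O2 and 1 for the difference of the H2O2 effects. The cause was not tested. Leaving out single libraries gave 4 to 8 matrix genes and 1290.0 to 3123 genes for H2O2 against vehicle, and 4 to 10 matrix genes and 1205 to 3267 genes for gRc + H2O2 against gRc, with 0 in the other comparisons.

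With replicate number as a block, both H2O2 comparisons called the same 6 matrix genes as without it, with 2305 and 2354 genes in all, and the other comparisons called 0. Genes with few counts, such as Lum, Eln and Col15a1, are limited by depth.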
